A study of Mus musculus with 9 samples.

Results

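Reads in the introns of polyadenylated RNA were described in v6.5 cells, an established mouse embryonic stem cell line, that had received only the vehicle. The cells grew on gelatin in serum with ESGRO, a preparation of leukaemia inhibitory factor, were given dimethyl sulfoxide (DMSO) and were harvested at once, at 0 h. The study set them beside cells given the compound KH-CB19, which blocks Clk kinases and was added in the same vehicle, and beside both treatments after 2 h. The DMSO 0 h group held 2 libraries, labelled as biological duplicates, with RNA integrity numbers of 9.1 and 9.3. RNA was selected in 2 passes over oligo-dT and sequenced with its strand kept. Members were all introns for which the table gave numbers for both the observed and the expected mean in this group. These were 21568 of 22228 introns, in 6935 of 7016 genes, and the other 660 were marked as low in coverage. Rankings and counts used the 20358 introns of 6530 genes whose expected mean was 5 reads or more.

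The spliceosome removes most introns while a gene is being transcribed, and mature mRNA leaves the nucleus without them. Some introns stay in transcripts that are already cleaved and polyadenylated. Such transcripts can be kept in the nucleus and spliced later, exported, or degraded, and genes of splicing factors and of the Clk kinases, which phosphorylate SR splicing proteins, are known for introns of this kind. Intron reads in poly(A)-selected RNA can also come from an exon that another isoform places inside the intron, from another gene lying in it, or from transcripts that are still being made.

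The table gives, for each intron, a mean observed and a mean expected read count over both libraries, without the value of either library. No spread between libraries could therefore be set beside a mean, and the only test is the adjusted p in the authors' deposited table for observed against expected. An intron is called above or below expectation here where that p was under 0.05. Depth can be read only from the intron reads: the observed means summed to 1286589 reads and the expected means to 963524. The median intron had 27 observed reads and 22 expected. Observed means were at least 10 reads except in 6 introns of Zzz3, so an intron with a low expected mean could hardly fall below it, and the lowest expected mean of an intron called below was 17, in Zzz3 intron 3. Outside Zzz3 it was 25, for example in Cs intron 10, which had 10 reads.

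The expected mean followed intron length inside each gene. Over 1403 genes with at least 5 introns, log2 expected reads rose by a median of 0.54 (quartiles 0.52 and 0.59) for each doubling of length, with a median R² of 0.997. The observed means were tied to length far less, with a median R² of 0.188. Within a gene the expected means thus have the shape of length, while what sets their level is not given in the sources used here. A call is not a level of retention, and introns of different genes with the same ratio can differ widely in reads. In the 3198 genes with at least 3 ranked introns, the summed observed reads were 1.41 times the summed expected reads at the median (quartiles 1.13 and 1.86).

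Of the 20358 ranked introns, 5355 (26.3%) were above expectation, 2350 (11.5%) were below it and 12653 passed neither way. The median log2 ratio of observed to expected reads was 0.45, with quartiles of −0.25 and 1.16, and the median called intron lay 3-fold from expectation in each direction. The lower direction depended on coverage. Among introns with 5 to 10 expected reads 33.7% were above and none below, and among those with 100 or more 23.8% were above and 42.5% below. At an expected mean of 50 or more, 1042 of 4376 introns (23.8%) were above and 1591 (36.4%) below, and the median log2 ratio was −0.12. At the edge of the ranking, 40.4% of the 270 introns with an expected mean of 4.5 were above, against 43.3% of the 314 with an expected mean of 5.

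**Figure D1:**
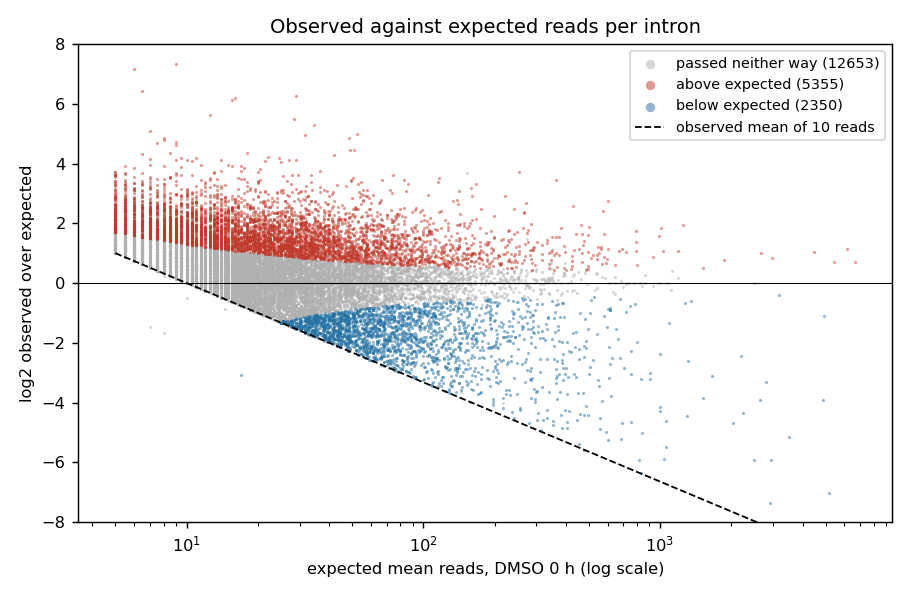
Log2 observed over expected reads (vertical axis) against the expected mean (horizontal axis, log scale) for 20358 introns of DMSO 0 h cells, coloured by the authors' call. The dashed line marks an observed mean of 10 reads, below which only introns of Zzz3 lie, and the lone blue point at an expected mean of 17 is Zzz3 intron 3.

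The excess was unevenly held. Introns above expectation carried 458481 reads more than expected, which was 36.9% of all observed reads of the ranked introns, and those below lacked 218930 reads. Of the introns above, 507 (9.47%) held 50% of that excess. The largest single excess was in Hsp90ab1 intron 21, with 13391.5 reads observed and 6135 expected, followed by Eef1a1 intron 9 (9129 observed, 4473 expected) and Ddah1 intron 4 (10793.5 observed, 6688 expected). Next came Tardbp intron 18 (3971.5 observed, 362 expected) and Chtf8 intron 7 (4796.5 observed, 1255.5 expected). Hsp90ab1 encodes a cytosolic Hsp90 chaperone and Eef1a1 a translation elongation factor. Both have many near-identical copies in the genome, so how their reads were shared out is uncertain. Intron numbers throughout are the authors' own: they rise from 5′ to 3′, run from 2 to 132 and differ from the order in the annotated transcript for 11713 of 18859 introns that could be matched.

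Few genes were above expectation throughout. At least 1 intron was above expectation in 3593 of 6530 genes (55.0%), in 2362 of them exactly 1, in 849 exactly 2 and in 382 at least 3. Both an intron above and an intron below were found in 1202 genes (18.4%). Of the 3198 genes with at least 3 ranked introns, 1114 (34.8%) held both kinds, 20 had all introns above and 2 had all below. An intron below expectation lay in a gene with an intron above in 91.3% of cases, against 57.1% for introns that passed neither way. Since the expected mean tracks length within the gene, a high intron and a low one in the same gene are not independent. The SD of the log2 ratio was 1.25 over the 15553 introns of these genes and 1.22 inside genes, and from a ratio made this way nothing is read about how genes differ.

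Msh6, which recognises mismatches for DNA repair, showed the widest contrast between introns that follow each other by number among the ranked introns of a gene. Its intron 4 (mm9, chromosome 17, 88384440 to 88384542, plus strand, 103 bp) had 2219 reads where 29 were expected, a log2 ratio of 6.26. Intron 5, the next one listed, had 19 reads where 555 were expected, a log2 ratio of −4.87. The adjusted p in the authors' deposited table was 2.59e-156 for the first and 1.68e-73 for the second. The gene had 6 ranked introns, 2 above and 4 below.

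In all, 989 such pairs, called neighbours here, in 763 genes, joined an intron above and an intron below, and 217 pairs differed by at least 4 log2 units. Introns that were not ranked can lie between the members of a pair, and their numbers can be far apart, as in Eif4g1. Eif4g1, the scaffold of the cap-binding translation initiation complex, had 1446.5 reads in intron 21 against 9 expected and 20 in intron 10 against 126.5. In Eif3a, a subunit of initiation factor 3, intron 23 had 1170 reads against 16 and intron 18 had 10 against 108.5. Trip12, a ubiquitin ligase, had 1080.5 against 15.5 in intron 11 and 18.5 against 139 in intron 13. The other pairs among the 10 widest came from Nacc1, Tardbp, Rif1, Hsp90ab1, Ncl and Umps. In each of the 10 the low intron held fewer than 25 reads, and in 8 of them it overlapped no annotated exon of its gene. The high intron was exon-free in none of them. It lay inside an exon of a coding transcript in Msh6, Eif4g1, Eif3a, Trip12, Tardbp, Rif1 and Umps. In Hsp90ab1 it lay inside an exon of a transcript annotated as retaining an intron, and in Nacc1 and Ncl it could not be located.

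Clk kinase genes showed the same mixture at lower ratios. Clk1 had 7 ranked introns, with 5, 7 and 11 above expectation and 9, 15, 16 and 17 below. Clk2 had introns 4 and 7 above and 10 below. In Clk3, intron 3 was above (143 reads, 35 expected) and intron 5 below (15 reads, 40.5 expected). Clk4 had introns 7 and 10 above, 3, 11 and 16 below, and intron 6 almost on its expectation, with 76 reads against 77. Ogt, the enzyme that adds O-GlcNAc to proteins, was above only in intron 6 of 7, below in 5, and passed neither way in intron 16 (74.5 reads, 58 expected).

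A few genes were above in most of their introns. Macf1, which links microtubules to actin, was above in 7 of 10 introns, and Ahctf1, a nuclear pore protein also known as Elys, in 7 of 12, both with none below. Fn1, which encodes fibronectin, was above in 6 of 14 introns and below in 3, and Map4k4, a protein kinase, above in 6 of 17 and below in 2. The highest log2 ratio was 2.11 in Ahctf1 and 5.50 in Fn1.

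**Figure D2:**
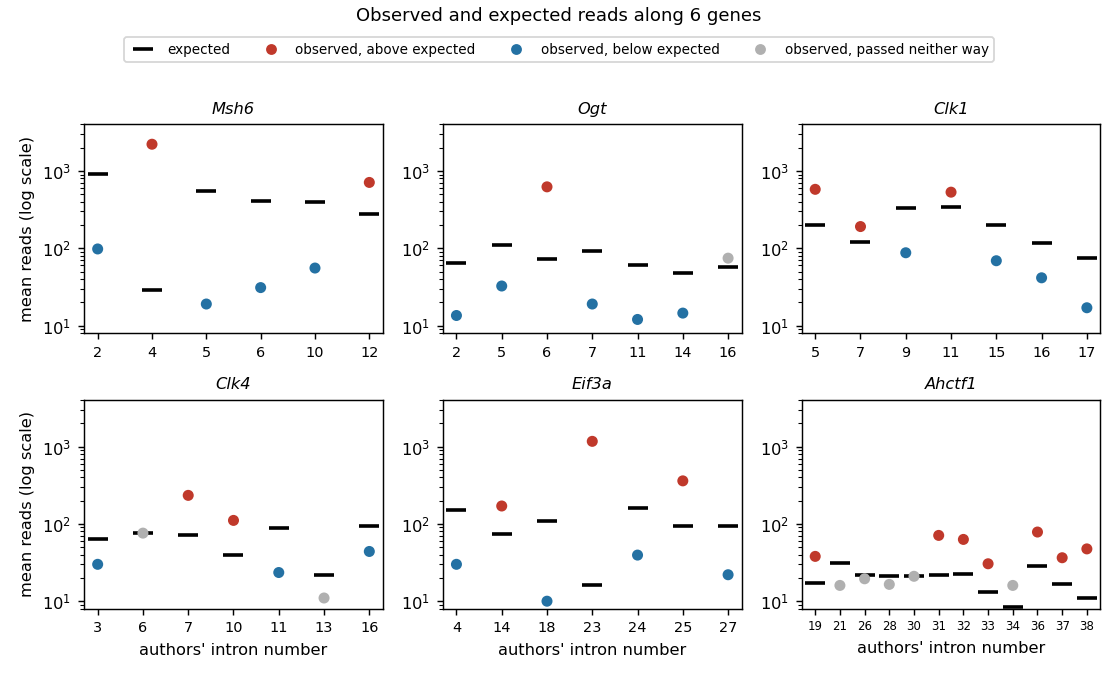
Mean reads (vertical axis, log scale) observed (points, coloured by the authors' call) and expected (black bars) in each ranked intron of 6 genes in DMSO 0 h cells, in the order of the authors' intron numbers. In Msh6 intron 4 stands far above its bar (2219 against 29) beside introns far below theirs, while Ahctf1 is above in 7 of 12.

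The highest ratios came from very short intervals. The highest of all was Eif4g1 intron 21 (mm9, chromosome 16, 20679852 to 20679956, 105 bp) with a log2 ratio of 7.33 and an adjusted p of 3.91e-152 in the authors' deposited table. Rif1 intron 35, in a gene for replication timing and double-strand break repair, followed at 7.17 (864 reads, 6 expected, 121 bp). Dnmt3l intron 2, in the gene of a cofactor of the de novo DNA methyltransferases, stood at 6.41 with 554.5 reads against 6.5 over 104 bp. After Msh6, Eif3a and Trip12 came Bms1 intron 11 (5.63), Fn1 intron 45 (5.50), Sae1 intron 13 (5.29), Chaf1a intron 13 (5.08), Srrm2 intron 17 (4.97), Ccne1 intron 16 (4.94), Gtf3c2 intron 3 (4.86), Usp14 intron 20 (4.85) and Pvrl2 intron 2 (4.77). Each of these 15 genes contributed its highest intron.

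Most of these intervals that could be placed on an annotation are exon sequence in another transcript of the same gene. Of the 25 highest introns 18 were at most 200 bp long; their median was 132 bp, while that of all ranked introns was 2000.5 bp. The 25 were then set against the exons of their genes in the GENCODE M21 annotation, a check chosen after the values had been seen. A located interval was one with the length and order of an annotated intron, or one flanked on both sides by such introns at the same distances as in the annotation. Of the 16 that could be located, 11 lay wholly inside an exon of a protein-coding transcript, among them those of Eif4g1, Rif1, Msh6, Eif3a, Trip12, Bms1, Fn1 and Srrm2. Over all ranked introns 145 of 20358 (0.712%) did so. The share was 23% among the 100 highest, 6.8% among the 500 highest and 1% among the 100 lowest.

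Calls differed with exon overlap over the whole table. Of 145 introns inside an exon of a coding transcript 53.1% were above expectation and 3.45% below, with a median log2 ratio of 1.12. Of 1410 inside an exon of a transcript annotated as retaining an intron 34.5% were above, and of 7238 partly covered by an exon 33.1%. Of 10390 that overlapped no exon of their gene 19.5% were above and 13.7% below, with a median of 0.30. The contrast was wider at an expected mean of 50 or more, where 12.5% of 1823 exon-free introns were above and 49.7% below, with a median of −0.73, against 54.7% above and 7.55% below for 53 introns inside a coding exon. Among the 18 located intervals that are not introns in the annotation and lie inside a coding exon, 17 were above and none below, with a median log2 ratio of 4.08. The other 1027 ranked introns could not be located, and 29.4% of them were above.

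**Figure D3:**
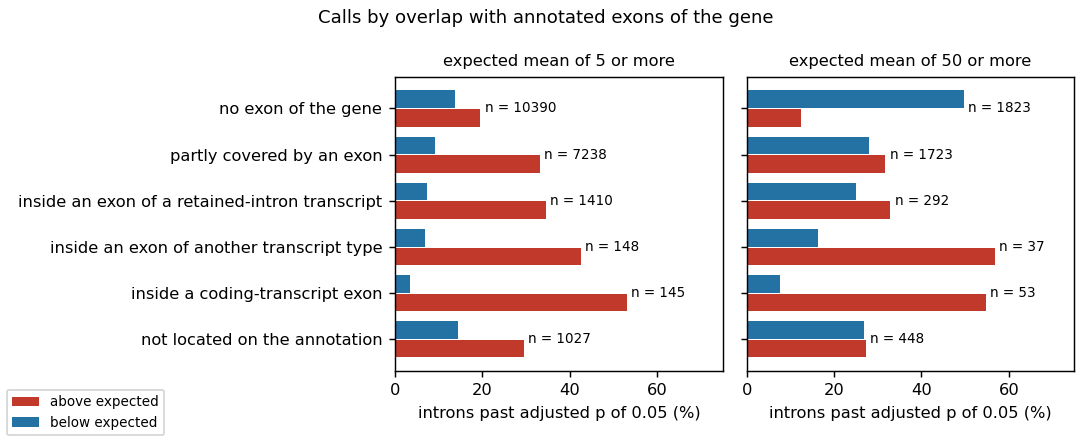
Share of introns above (red) and below (blue) expectation in DMSO 0 h cells, in percent, by overlap with annotated exons of the gene, at an expected mean of 5 or more (left) and 50 or more (right). In the right panel 49.7% of introns with no exon are below and 54.7% of those inside a coding-transcript exon are above.

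Annotated introns free of any exon of their gene still included large excesses. Of 10272 such introns 2002 (19.5%) were above expectation and 1402 were below. The highest was Zzef1 intron 6 (1080.5 reads, 49 expected, log2 ratio 4.46), in the gene of a zinc finger protein, followed by Alg13 intron 9 (175.5 reads, 10 expected) and Utp20 intron 63 (107 reads, 7 expected). Alg13 encodes a subunit of an N-glycosylation enzyme and Utp20 a factor for small ribosomal subunit assembly. At an expected mean of 50 or more the highest were Ttc17 intron 2 (mm9, chromosome 2, 94219016 to 94226248, minus strand) and Hsd17b4 intron 2 (chromosome 18, 9268 bp). Ttc17 intron 2 had 1344 reads against 116.5, a log2 ratio of 3.53, and Hsd17b4 intron 2, in the gene of a peroxisomal beta-oxidation enzyme, had 1679 against 167, a ratio of 3.33. Others were Dock6 intron 26 (378.5 against 55.5), Msn intron 2 (730 against 166.5) and Dnmt3b intron 26 (221.5 against 57). Dnmt3b encodes a de novo DNA methyltransferase and Msn encodes moesin, a linker of actin to the plasma membrane.

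Zzef1 intron 6, Ttc17 intron 2, Hsd17b4 intron 2 and Ddah1 intron 4 each hold an annotated processed pseudogene on the same strand: Gm6733, Itpa-ps1, Cd63-ps and Rpl36a-ps2. A processed pseudogene is an old copy of another gene's mRNA, so reads of the parent gene can match it. Of the 81 ranked introns that hold one, 27 (33.3%) were above expectation, against 26.1% of the other located introns. At an expected mean of 50 or more this was 11 of 22 introns against 909 of 3906 (23.3%). Within exon-free annotated introns at that minimum it was 7 of 15 against 211 of 1770. How the authors treated reads with several matches is not given in the sources used here, and the part of pseudogenes in these values was not tested. Introns that overlap a gene on the other strand were above in 25.6% of cases and all others in 26.2%.

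Exon-free introns also held contrasts inside a gene. In 205 of the 989 neighbouring pairs the high intron overlapped no exon. Besides Ttc17 and Hsd17b4, Laptm4a, which encodes a lysosomal membrane protein, had 281.5 reads in intron 3 against 83.5 expected and 14.5 in intron 2 against 153.5. Sfpq, an RNA-binding protein of paraspeckles, had 2933 reads in intron 14 against 987.5 and 52.5 in intron 16 against 433.5. Its intron 4 was lower still, with 13.5 reads against 816.5.

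The lowest ratios were found where many reads were expected. Hsp90ab1 intron 6 (mm9, chromosome 17, 45708127 to 45708361, minus strand) had 18 reads where 2927 were expected, a log2 ratio of −7.35, with an adjusted p of 3.7e-191 in the authors' deposited table. Nup93 intron 18, in the gene of a nuclear pore scaffold protein, had 10 reads against 828.5 (−6.37). Sall4 intron 7, in the gene of a transcription factor of pluripotent cells, had 49 against 2955.5 (−5.91), and Tardbp intron 3, in the gene of the RNA-binding protein TDP-43, 17.5 against 1039.5 (−5.89). Ewsr1 intron 5 (−5.57), Nacc1 intron 5 (−5.37), Trim28 intron 2 (−5.24), Actb intron 9 (−5.21) and Hnrnph1 intron 3 (−5.02) completed the 10 lowest genes together with Sfpq intron 4 (−5.92). In Sall4 and Trim28 the low intron shared its gene with a high one, at 5349 reads against 2673.5 in Sall4 intron 8 and 4072 against 603 in Trim28 intron 25, and neither high interval could be located on the annotation. All 5 ranked introns of Nup93 were below expectation, while its other 3 introns in the table, each with an expected mean of 0.5 and so outside the ranking, were above. Of the 25 lowest introns none lay inside a coding exon, and their median length was 1040 bp.

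The share of introns above expectation differed by 10.1 percentage points over the length classes and by 33.3 over the number classes. After each gene's median was subtracted the order turned: the class medians then spanned 0.67 log2 units over length and 0.34 over number. By length the share was 28.3% for introns of at most 200 bp, 21.2% for those over 200 and up to 500 bp, 29.8% for those over 2000 and up to 5000 bp, and 20.5% for introns over 10000 bp. In annotated introns free of exons, the shortest were no longer high: 12.9% of those of at most 200 bp were above, 11.8% of those over 200 and up to 500 bp, and 25.4% of those over 5000 and up to 10000 bp. With 20 or more expected reads the share in exon-free introns ran from 5.95% to 24.4% over the length classes. At an expected mean of 50 or more, 20 of 27 exon-free introns of at most 200 bp (74.1%) were below expectation and 2 were above. In the class over 5000 and up to 10000 bp 41.2% of 245 were below and 21.6% above.

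By the authors' number, the share above expectation was 10.8% for introns numbered 2, 13.1% for 3, 17.8% for 4 and 5, 26.1% for 6 to 10, 35.3% for 11 to 20 and 44.1% for numbers over 20. The median expected mean fell over the same classes from 32.5 to 14.5 reads, and low expected means go with high ratios, as given above. At an expected mean of 50 or more the shares still ran from 12.4% to 34.4%. After subtraction of each gene's median log2 ratio, the class medians ran from −0.21 for number 2 to 0.12 for numbers over 20. Genes with many introns weigh more in the high classes. With the order taken from the annotated transcript, exon-free introns with 50 or more expected reads were above in 5.88% of cases in position 1, 9.34% in position 2, 6.37% in position 3, 11.8% in positions 4 and 5, 17.2% in 6 to 10, 13.1% in 11 to 20 and 18.9% beyond. Their median log2 ratios showed no such order, at −0.73 in position 2 and −0.82 in positions 6 to 10.

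**Figure D4:**
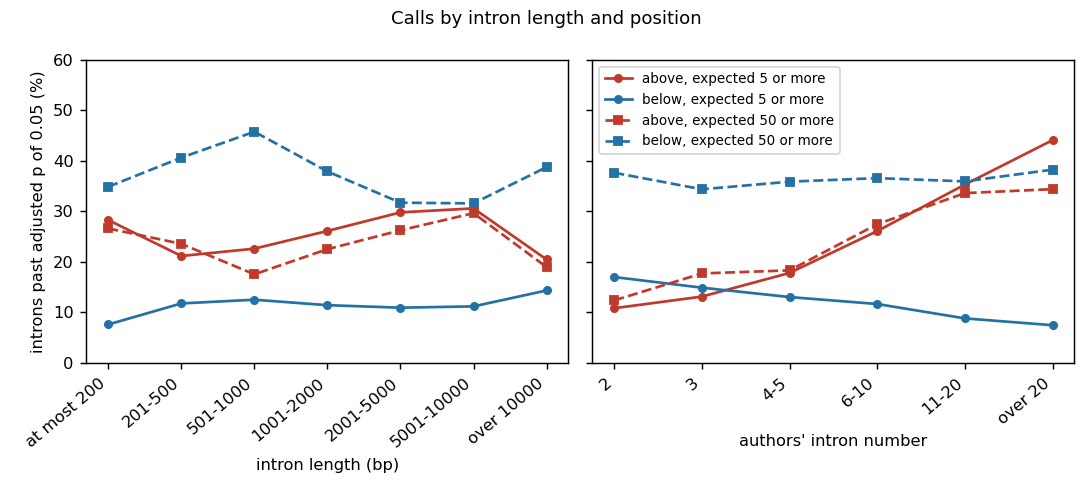
Share of introns above (red) and below (blue) expectation in DMSO 0 h cells, in percent, by intron length in bp (left) and by the authors' intron number (right), at an expected mean of 5 or more (solid lines) and 50 or more (dashed lines). On the solid lines the share above ranges from 20.5% to 30.6% over length and from 10.8% to 44.1% over number.

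Calls also differed with place in the transcript. Introns in the 5′ untranslated region were above expectation in 15.6% of 630 cases and below in 17.3%. Those between coding exons were above in 25.8% and below in 11.1% of 17738, and those in the 3′ untranslated region in 37.6% and 7.65% of 170. Their median expected means were 38, 20.5 and 40.5 reads. At 50 or more expected reads the order of the first 2 classes below expectation turned. The shares above and below were then 16.9% and 34.9% of 261, 22.0% and 39.4% of 3262, and 46.8% and 12.9% of 62. The last intron of the annotated transcript was above in 32.4% of 716 cases and the others in 25.4%. At 50 or more expected reads this was 25.4% of 244 last introns and 22.0% of the others. Tardbp intron 18, a last intron in the 3′ untranslated region that lies inside an exon of another coding transcript, had the most excess reads of these introns.

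Counts for groups of genes stand against 26.3% above and 11.5% below for all ranked introns. At an expected mean of 50 or more these shares were 23.8% and 36.4%. Over all ranked genes 55.0% had an intron above and 18.4% held both kinds, and a gene with more ranked introns has more occasions for either. Genes of splicing regulation had many introns on both sides. The 184 ranked introns of 33 SR and SR-related protein genes were above in 61 cases (33.2%) and below in 58 (31.5%), with a median log2 ratio of 0.06 against 0.45 for all introns, and 25 of the genes held both kinds. Srrm2, a scaffold of nuclear speckles, had 1647 reads in intron 17 against 52.5 and 13.5 in intron 3 against 257. Luc7l3, a U1-associated protein, had 130.5 in intron 15 against 6.5, and Srsf6 had 12 in intron 6 against 216. Of the list's 64 exon-free introns 7 (10.9%) were above and 45.3% below, against 19.5% and 13.7% of all introns that overlapped no exon. At 50 or more expected reads the share above no longer lay under that of all exon-free introns, at 13.5% of 37 against 12.5%. The share below was then 67.6% against 49.7%. The CLK, SRPK and DYRK kinase genes were above in 13 and below in 12 of 37 introns. None of their 7 exon-free introns was above, a small number to set beside 19.5%. Srpk1, which phosphorylates SR proteins in the cytoplasm, had 233 reads in intron 14 against 46.5, and Prpf4b, a kinase of the spliceosome, 44.5 in intron 12 against 6.

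hnRNP and FET protein genes leaned below expectation. Of 164 introns in 30 genes 39 (23.8%) were above and 68 (41.5%) below, with a median of −0.29. Both kinds were held by 19 of the genes, against 18.4% of all genes. Taf15 had 826.5 reads in intron 49 against 42, and Ewsr1, also of the FET family, had its intron 5 among the lowest of all. Other RNA-binding splicing regulators were above in 56 and below in 58 of 192 introns. Celf1 had 1427 reads in its 3′ untranslated intron 22 against 158.5, and Khsrp had 17.5 in intron 6 against 190.5. Core spliceosome genes stood nearer to all introns, with 67 of 273 above (24.5%) and 46 below. Dhx16, a spliceosomal helicase, had 366 in intron 18 against 18, and Sf3b1, which binds the branch site, 10 in intron 13 against 107.5. The hnRNP list had a median expected mean of 96 reads and the SR list of 74.75, against 22 for all members, and calls below depended on coverage. At 50 or more expected reads, 63 of 111 hnRNP and FET introns (56.8%) were below and 22.5% above, with a median of −1.10. SR introns were then below in 44.4% of 117 cases and above in 39.3%. All introns at that minimum were below in 36.4% and above in 23.8%, with a median of −0.12. The part of coverage in these lists was not tested.

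Cleavage, polyadenylation and Integrator genes had 41 of 120 introns above (34.2%, against 26.3% of all), 12 below and a median of 0.79, at a median expected mean of 21.25. With 50 or more expected reads this turned to 4 of 18 above and 9 below, with a median of −0.67. Ints7 intron 14 had 256.5 reads against 29 and Ints10 intron 17 had 116.5 against 12.5, both in genes of the Integrator complex that ends small nuclear RNAs. Genes of nonsense-mediated decay and RNA surveillance were above in 44 of 148 introns (29.7%) and below in 20 (13.5%), near the 26.3% and 11.5% of all introns. Smg1, the kinase of the pathway, had 52 reads in its exon-free intron 60 against 6, and Xrn1, a 5′ to 3′ exonuclease, 51.5 in its exon-free intron 32 against 6.5.

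Chromatin regulators were above in 170 of 552 introns (30.8%, against 26.3% of all) and below in 69 (12.5%, against 11.5%). Their median was 0.49, and 103 of 124 genes had an intron above, against 55.0% of all genes. Chd6, a remodelling helicase, had 157.5 reads in intron 30 against 9, and H2afy, the gene of macroH2A, 13.5 in intron 2 against 197.5. Genes of nuclear pores and transport were above in 107 of 333 introns (32.1%) and below in 48. Xpo1, the main exporter of proteins, had 124 in intron 36 against 7. Genes of DNA replication and the cell cycle were above in 30.7% of 436 introns and below in 57, and those of the DNA damage response in 87 of 297 (29.3%) and 31. Smc5 had 255 reads in intron 18 against 17, Blm, a helicase, 326.5 in its exon-free intron 19 against 39, and Mdm4, an inhibitor of p53, 13.5 in intron 3 against 320.5. With 50 or more expected reads the medians of these lists were under 0, at −0.36 for chromatin regulators, −0.92 for nuclear pores and transport, −0.50 for replication and the cell cycle and −0.68 for the DNA damage response. Nuclear pore and transport genes were then above in 14 and below in 30 of 59 introns.

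Among genes of the translation machinery, ribosomal protein genes had the lowest share above expectation, and the other lists stood near the 26.3% of all introns. Ribosomal protein genes were above in 32 of 215 introns (14.9%) and below in 67 (31.2%), with a median of 0.00. Their median expected mean was 116 reads, against 22 for all ranked introns, and calls below depended on coverage. At 50 or more expected reads they were above in 14.8% and below in 34.1% of 176 introns. All introns at that minimum were above in 23.8% and below in 36.4%. Of their 45 exon-free introns 2 (4.4%, against 19.5% of all exon-free introns) were above, both in Rpl24. Processed pseudogenes of ribosomal protein genes make these values uncertain. Translation factors were above in 65 and below in 70 of 250 introns, and snoRNA host genes in 66 and 99 of 276 (23.9% and 35.9%). At 50 or more expected reads, translation factors were above in 25.6% and below in 44.8% of 125 introns. For snoRNA host genes these shares were then 22.8% and 40.6% of 219. Ncl, which encodes nucleolin, had 3342.5 reads in intron 7 against 253 and 10.5 in intron 18 against 315. tRNA synthetase genes were above in 45 of 167 introns (26.9%) and below in 11.

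Metabolic and housekeeping groups varied. Oxidative phosphorylation genes were above in 20 and below in 20 of 151 introns (13.2% each), the lowest share above of the 25 lists with at least 10 introns. Glycolysis genes were above in 16 and below in 16 of 67. Gpi1, glucose-6-phosphate isomerase, had 1341.5 reads in intron 9 against 267 and 10.5 in intron 4 against 240.5. Proteasome genes were above in 32 of 128 introns and below in 20, and chaperones in 63 of 227 (27.8%) and 48, both near the 26.3% above of all introns. Zinc finger genes with Zfp names were above in 45 of 234 introns (19.2%) and below in 28. The actin and tubulin list was above in 42 of 83 introns (50.6%) and below in 7, the highest share of these 25 lists. However, 12 of its 22 genes had an intron above, against 55.0% of all genes. The list's median log2 ratio was 1.10 over introns and 0.08 over genes. Its median expected mean was 19.5, near the 22 of all introns, and at 50 or more it was above in 4 of 19. Macf1 and Dst, giant linkers of the cytoskeleton, gave its highest introns: Dst intron 99 had 114.5 reads against 9, Dst intron 95 had 83 against 7.5 and Macf1 intron 92 had 135 against 12.5. O-GlcNAc cycling genes were above in 7 and below in 6 of 19 introns.

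Pluripotency genes were above in 27 of 116 introns (23.3%) and below in 29, with a median of 0.00. Their median expected mean was 56.75 reads, against 22 for all ranked introns. At 50 or more expected reads they were above in 19.4% and below in 37.1% of 62 introns, with a median of −0.21. All introns at that minimum were above in 23.8% and below in 36.4%, with a median of −0.12. Over all ranked introns of the list, both kinds were held by 12 of 37 genes, against 18.4% of all genes. Rif1 and Dnmt3l gave the highest introns, and Sall4 and Trim28 the lowest. In Nanog all 3 ranked introns passed neither way, at 274.5 reads against 250.5, 108.5 against 125 and 80.5 against 88. Pou5f1, which encodes Oct4, had 20.5 reads in intron 4 against 42, below expectation, and passed neither way in introns 3 and 5. Esrrb, an orphan nuclear receptor, had both ranked introns near expectation, at 59 against 73 and 88.5 against 74.5; these 3 genes were picked after their values were seen. Of 11 markers of mouse embryonic stem cells 10 had an intron in the group, with 12001.5 reads in 24 introns, and only Sox2 had none. None of 11 germ layer and trophoblast markers and none of 9 fibroblast markers had one. A gene without introns cannot be counted here, so absence alone does not show that a gene was silent. The longer lists of these other cell types held a single gene each with ranked introns, Pecam1 (3 of 5 above, 1 below) and Fn1.

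Some of these introns carry microRNAs, which are cut from the intron of the primary transcript. Of the 99 ranked introns that hold an annotated microRNA 26.3% were above expectation and 12.1% below, close to all introns, and genes fixed as microRNA hosts were above in 30 of 94 introns and below in 7. The 167 introns that hold a snoRNA were above in 40 cases and below in 41 (24.6%). Their median expected mean was 84.5 reads, against 22 for all ranked introns. At 50 or more expected reads they were above in 18.6% and below in 35.3% of 102 cases, against 23.8% and 36.4% of all introns. A mature sequence in the RefSeq table (GRCm38.p6) was matched for 72 of the 99. Those below were picked from called host introns. The first 6 are shown because they form pairs with the same seed, bases 2 to 8, given in capitals, and miR-342 because its host intron was below expectation. Mcm7 intron 17 (mm9, chromosome 5, 138606390 to 138607137, minus strand), in the gene of a subunit of the replicative helicase, holds the first pair and miR-25. miR-32 lies in D730040F13Rik intron 11, and miR-15b and miR-16 in Smc4 intron 7.
miR-106b-5p: uAAAGUGCugacagugcagau
miR-93-5p: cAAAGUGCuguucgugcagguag
miR-25-3p: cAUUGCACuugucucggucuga
miR-32-5p: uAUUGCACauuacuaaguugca
miR-15b-5p: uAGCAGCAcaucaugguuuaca
miR-16-5p: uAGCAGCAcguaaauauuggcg
miR-342-3p: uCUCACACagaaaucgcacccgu

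Other microRNAs that share a seed lay in introns that passed neither way, such as miR-6922-5p in Srebf1 intron 14 and miR-6993-5p in Fads1 intron 5. Mcm7 intron 17 had 124 reads against 54, a log2 ratio of 1.20, with an adjusted p of 9.03e-05 in the authors' deposited table. Smc4 intron 7, in a condensin gene and free of exons, had 93.5 against 38 (1.30), and D730040F13Rik intron 11 had 97.5 against 36.5 (1.42). Evl intron 3, which holds miR-342, was below expectation with 11 reads against 29.5 (−1.42). Another intron of Evl, the exon-free intron 12, was above with 52 reads against 10.5. These examples were chosen after their values were seen.

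The separate libraries of the KH-CB19 0 h group, harvested as soon as the inhibitor was added, gave nearly the same ratios. Over 16875 introns with an expected mean of at least 5 in both groups, Pearson's r of the log2 ratios was 0.972 and Spearman's rho 0.965, across introns that share gene, length and genome. Of 5058 introns above in DMSO cells 4100 (81.1%) were also above in the KH-CB19 group, where the share over the same introns was 26.3%. Of 1827 below, 1485 (81.3%) were below there too, against 9.54% over all. No intron was called in opposite directions. Since each group gives only its mean, this is the nearest available view of how repeatable the ratios were.

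**Figure D5:**
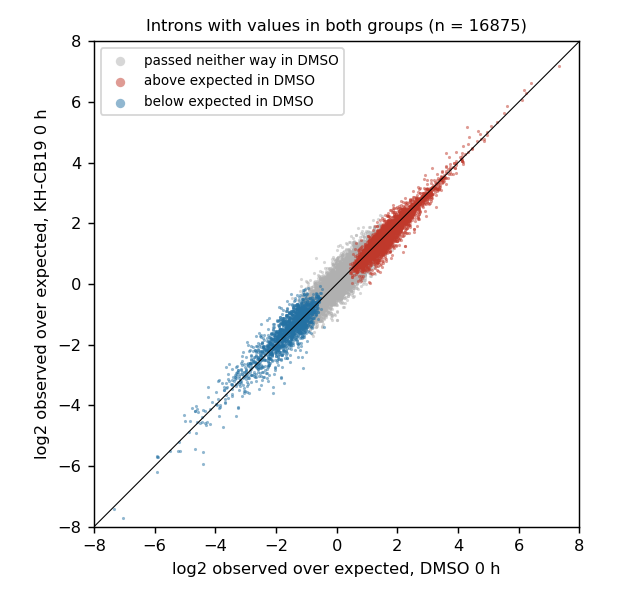
Log2 observed over expected reads in the DMSO 0 h group (horizontal axis) and in the KH-CB19 0 h group (vertical axis) for the introns with an expected mean of at least 5 in both, coloured by the call in DMSO cells. Points follow the diagonal, with r = 0.972, and no intron is called in opposite directions.

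Values for DMSO cells at 2 h were given for 3153 of the ranked introns, nearly all with a high ratio at 0 h. Of introns with a log2 ratio over 3 at 0 h 93.7% had 2 h values, of those between 2 and 3 77.4%, of those between 1 and 2 41.0%, and of those between 0 and 1 0.896%. None of the 2350 introns below expectation had one. Presence in the 2 h columns thus followed from the 0 h ratio to a large part and is not a separate measurement. Among introns above, 85.7% of those inside a coding exon and 51.8% of the exon-free ones had 2 h values. For the 3153 introns the log2 of the 2 h mean over the 0 h observed mean had a median of −0.32. Around that median 5% of introns lay below −0.48 and 5% above 0.42, and the log2 means of both times had a Pearson's r of 0.973. The 2 h means are normalised and the 0 h means are not, so the shift itself has no interpretation as a change.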

How the data were processed

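RNA-seq of poly(A)-selected RNA was described for the DMSO 0 h group, 2 libraries. Per the submitters' processing notes, the build was mm9 and the tools named were DESeq, bedtools 2.17.0, Cufflinks 2.1.1, Bowtie 1.0.0, TopHat2 2.0.9 and SAMtools 0.1.19, without their roles or settings. The deposited 0 h values are mean observed and expected read counts of a group, in steps of 0.5. The deposited 2 h values are normalised mean signal. The authors' deposited log2 ratios and adjusted p-values were used as they stand. The sources used here do not give how expected counts were made or whether counting used strand.

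The log2 ratio was computed from both means without a pseudocount, and introns with an expected mean under 5 (1210, 5.61%) were left out of rankings. Calls used an adjusted p of 0.05. Introns were matched to GENCODE M21 (GRCm38) by gene symbol, length and order: 20629 of 22228 matched, and 505 others were located between matched introns at identical distances, which assumes that these distances fix the position. Printed coordinates are those of the mm9 file, 1-based. No per-library value was available, so there is no interval or replicate test. Scripts used Python 3.11.15 with pandas 2.3.3, and were tested on simulated data.

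The members and gene lists were chosen with earlier results of these data known. Named introns were the 15 highest and 10 lowest ratios, 1 per gene, the 5 largest excesses, up to 3 above and 2 below per list, the extremes of each length and number class, the 5 genes with most introns above, the 5 with the widest range and the 10 widest neighbouring pairs; from these the text names a selection, and some are not reported here. Profiles of Clk and Ogt genes, exon classes, exon-free rankings, the minimum of 50, pseudogenes and small RNAs were added after the values were seen. Alternatives were other minimums, thresholds and pseudocounts, 1 intron per gene, centring on the gene and the restriction to exon-free introns.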

Additional observations from a re-analysis of the deposited data

How the results depend on the processing

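The 5355 introns above expectation became 2723 at an expected mean of 20 or more, 1042 at 50 or more, 3360 with 1 intron per gene (the one with the most observed reads) and 2002 in annotated introns free of exons, each a smaller set by construction. The 2350 below became 8 with 1 intron per gene, where keeping the intron with the most reads leaves out low ones by construction. In exon-free introns the calls below became 1402. The median log2 ratio of 0.45 became 0.30 with a pseudocount of 10, 0.00 at 20 or more, −0.12 at 50 or more and 0.30 in exon-free introns. At 50 or more the median was thus under 0 and calls below (1591) outnumbered calls above. The range of class medians over length, 0.37, became 0.67 after centring on the gene. Over the authors' numbers, the range of the share above, 33.3 percentage points, became 22.0 at 50 or more, and the range of medians, 1.07, became 0.49 at 20 or more and 0.34 after centring, so that the larger range lay over length after centring and over number before it. The correlation with the KH-CB19 0 h group was 0.977 at 20 or more and 0.983 at 50 or more. No paired analysis was possible because the table gives only the mean of both libraries of a group, and leaving out each library in turn was not run for the same reason. Depth limits calls below expectation, since none was made under an expected mean of 17.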
